A study of Homo sapiens with 6 samples.

Results

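The genes described here encode the initiation and elongation factors of cytoplasmic translation. They were chosen by name: every protein-coding gene whose identifier maps in GENCODE release 29 to a symbol beginning with EIF1 to EIF6 or with EEF1 or EEF2, with the eIF2 kinases (EIF2AK genes) left out. The rule gave 67 of the 58721 genes in the count table and used no measured value. Of these, 54 had enough reads to be tested and 13 did not.

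Initiation begins when eIF2, bound to GTP, brings the initiator methionyl-tRNA to the small ribosomal subunit, where eIF1, eIF1A and the large eIF3 complex hold the subunit ready for mRNA. The mRNA arrives through eIF4F, in which eIF4E binds the 5′ cap, eIF4G is the scaffold and eIF4A unwinds structure, and after start-codon recognition eIF5 and eIF5B complete the joining of the large subunit. eEF1A then delivers aminoacyl-tRNAs and eEF2 moves the ribosome along. Many mRNAs of the translation machinery begin with a 5′ terminal oligopyrimidine (TOP) tract, a C at the first base followed by a run of C and T, through which mTORC1 signalling controls their translation.

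The study compared wild type cells with cells lacking 2 RNA demethylases, ALKBH5 and FTO, enzymes that remove methyl groups from N6-methyladenosine and, for FTO, from its cap-adjacent 2′-O-methylated form. Both groups were HEK293T, a human embryonic kidney line that carries the SV40 large T antigen; 3 libraries were wild type and 3 came from a CRISPR/Cas9 double knockout of both genes. The labels state neither the number of knockout clones nor whether the wild type cells were their parental line. The effect of the knockout can therefore not be told apart from other differences between the 2 groups of cells. The p-values below rest on the spread between libraries of a group, not between clones. As a coefficient of variation common to all genes, that fitted spread was 2.4%. RNA was prepared from cytoplasmic Triton lysates containing cycloheximide, depleted of ribosomal RNA without poly(A) selection, and sequenced with a strand-specific kit.

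Library totals ran from 5634648 to 7551825 counts, so that 3 counts, the level that a count of 0 allows, correspond to 0.407 to 0.545 counts per 1000000 counts (CPM). FTO mRNA was 104.99 ± 7.83 CPM in the wild type libraries, against 56.1 ± 4.21 CPM in the double knockouts (SD, n = 3 each; log2 fold change -0.90), and ALKBH5 mRNA was 244.6 ± 10.3 and 186.2 ± 0.599 CPM (-0.40). Both targeted mRNAs were therefore lower but present in all 3 double knockout libraries. All 5 of 5 genes that HEK293 cells are known to express (VIM, KRT8, KRT18, NEFM and PAX2) were found, and their summed level was 985 to 1051 CPM in wild type and 1414 to 1420 CPM in double knockout. Of 6 markers of blood, fibroblasts and hepatocytes, CD3E and HBB were at 0 in all libraries, and the summed level of the 6 was 10.3 to 12.9 CPM in wild type and 8.62 to 11.7 CPM in double knockout. COL1A1, the 1 marker of these with enough reads to be tested, was lower (-0.34, adjusted p = 0.0397); its part in the results below was not tested.

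The bases at the annotated transcription starts are shown because they show which members have a TOP start by the rule given here. The starts used in these cells were not measured. RefSeq promoter windows (GRCh38.p14) were found for 54 members, 43 of them tested. A window was called a TOP start when the base at the transcription start was a C followed by at least 4 further C or T. This held for 13 of 71 member windows (18.3%) and for 4.07% of 35116 windows of all genes. In the sequences below, printed 5′ to 3′ from 10 bases before the start, the capitals mark the pyrimidine run that begins at the annotated start. Elongation factors, which are classic TOP mRNAs, are listed first.
EEF1A1: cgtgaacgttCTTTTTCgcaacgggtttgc
EEF2: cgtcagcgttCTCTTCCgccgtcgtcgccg
EEF1B2: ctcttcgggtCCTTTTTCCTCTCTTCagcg
EIF4B: tcatccgggtCTTTTgcgttctctttccct
EIF4A2: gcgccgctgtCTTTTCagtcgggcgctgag
EIF3D: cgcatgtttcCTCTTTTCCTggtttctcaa
EIF3F: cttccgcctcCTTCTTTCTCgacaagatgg
EIF3K: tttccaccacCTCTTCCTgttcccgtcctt
EIF3M: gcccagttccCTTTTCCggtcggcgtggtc
EIF2S3: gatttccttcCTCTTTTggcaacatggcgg
EIF2A: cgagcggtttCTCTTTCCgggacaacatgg
EIF2D: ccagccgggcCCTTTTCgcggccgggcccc
EIF2S3B, a retrocopy of EIF2S3 on another chromosome, also has a TOP start. On the minus strand lie the printed windows of EEF1A1 (chr6:73521013-73521042), EEF2 (chr19:3985444-3985473), EIF3D (chr22:36529147-36529176) and EIF2D (chr1:206612446-206612475). On the plus strand lie those of EEF1B2 (chr2:206159885-206159914), EIF4B (chr12:53006446-53006475), EIF4A2 (chr3:186783567-186783596) and EIF2A (chr3:150546777-150546806). Those of EIF3F (chr11:7987327-7987356), EIF3K (chr19:38619178-38619207), EIF3M (chr11:32583821-32583850) and EIF2S3 (chrX:24054946-24054975) are on the plus strand as well.

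For some central factors the table holds no usable measurement. EIF4A1, the main eIF4A helicase, EEF1G, the gamma subunit of eEF1, EEF1E1, a component of the aminoacyl-tRNA synthetase complex, and EIF4E3, a cap-binding relative of eIF4E, were listed at 0 in all 6 libraries. EEF1AKMT4 was at 0 too, and it shares 99.5% of its gene body on the same strand with EEF1AKMT4-ECE2. EIF1AY, on the Y chromosome, was also at 0 and shares none of its body with another gene. Each of the 4 factors named first shares nearly its whole gene body with another annotated gene on the same strand: EIF4A1 100% (98.1% with AC016876.2), EEF1G 99.99% (with AP002990.1), EEF1E1 99.8% (with the readthrough gene EEF1E1-BLOC1S5) and EIF4E3 99.3% (with AC097634.4). In the whole table, 626 of 626 protein-coding genes whose bodies are fully covered by genes of the same strand were listed at 0, against 20.5% of 7140 that overlap no other gene. Of 875 such genes covered on the opposite strand alone, 276 (31.5%) were at 0. Among members, EIF2A, EIF3C and EIF4ENIF1 are each 100% covered on the opposite strand and had 4398, 447 and 2070 counts in all. A 0 for EIF4A1 or EEF1G is therefore no measure of its expression, and the eIF4A step is represented here by EIF4A2 alone.

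The other 7 members that were not tested had few reads, and 5 of them share much of their gene body on the same strand, so that their counts are uncertain as levels: EEF1AKMT2 99.7%, EIF4EBP3 99.5%, EEF1E1-BLOC1S5 89.7%, EEF1AKMT3 86.1% and EEF1AKMT4-ECE2 62.1%. EIF3CL, a near-identical copy of EIF3C, had 9 counts in each wild type library and 2, 6 and 6 in the double knockout libraries. EIF4E1B, an oocyte-type cap-binding protein, had between 0 and 4 counts per library, and EIF4EBP3, an eIF4E inhibitor, had 1 in all. EEF1AKMT3, an eEF1A lysine methyltransferase, had 4, 5 and 6 counts in wild type and 11, 9 and 7 in double knockout. EEF1AKMT2, EEF1AKMT4-ECE2 and EEF1E1-BLOC1S5 had at most 5 counts in any library.

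The translation factors moved in both directions and by small amounts. Of the 54 tested, 16 were higher and 22 lower in double knockout cells, and 16 did not pass (edgeR quasi-likelihood test, adjusted p under 0.05). Among all 14180 genes tested, 57.1% passed, 28.6% higher and 28.5% lower. The members' shares were 29.6% higher and 40.7% lower. Log2 fold changes ran from -0.77 (EIF4E) to 0.67 (EIF6), with a median of -0.06. The groups did not overlap for 42 of the 54 members, against 60.6% of all genes. Changes of at least 0.3 in size that passed the test were found for 13 members (24.1%), against 37.2% of all genes, and 0 members passed with a change of at least 1, against 6% of all genes. Among genes that passed, the median size of the change was 0.24 for members and 0.40 for all genes. Genes with more reads can pass with smaller changes, and members and all genes were not matched for read level. The summed level of all members was 18392 ± 187 CPM in the wild type libraries, against 18153 ± 78.9 CPM in the double knockouts.

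The balance of rises and falls depends on the scaling. With the spike-in mRNAs (GFP and FLuc) as the scale, the median of all genes moved by -0.11 on the log2 scale and 5 members were higher and 22 lower. GFP and FLuc counts together were 399, 427 and 316 in wild type and 347, 440 and 365 in double knockout. The library totals were 7400110, 7551825 and 5634648 in wild type and 5923328, 6433469 and 6136806 in double knockout. Double knockout replicate 2 thus had the highest spike-in share, and its part in the shift was not tested. Each library had 7 pg of GFP and 1.2 pg of FLuc per 1 µg of RNA, so this scale is per amount of RNA and not per cell. In bulk RNA, fewer cells with a transcript and less of it per cell cannot be told apart.

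**Figure D1:**
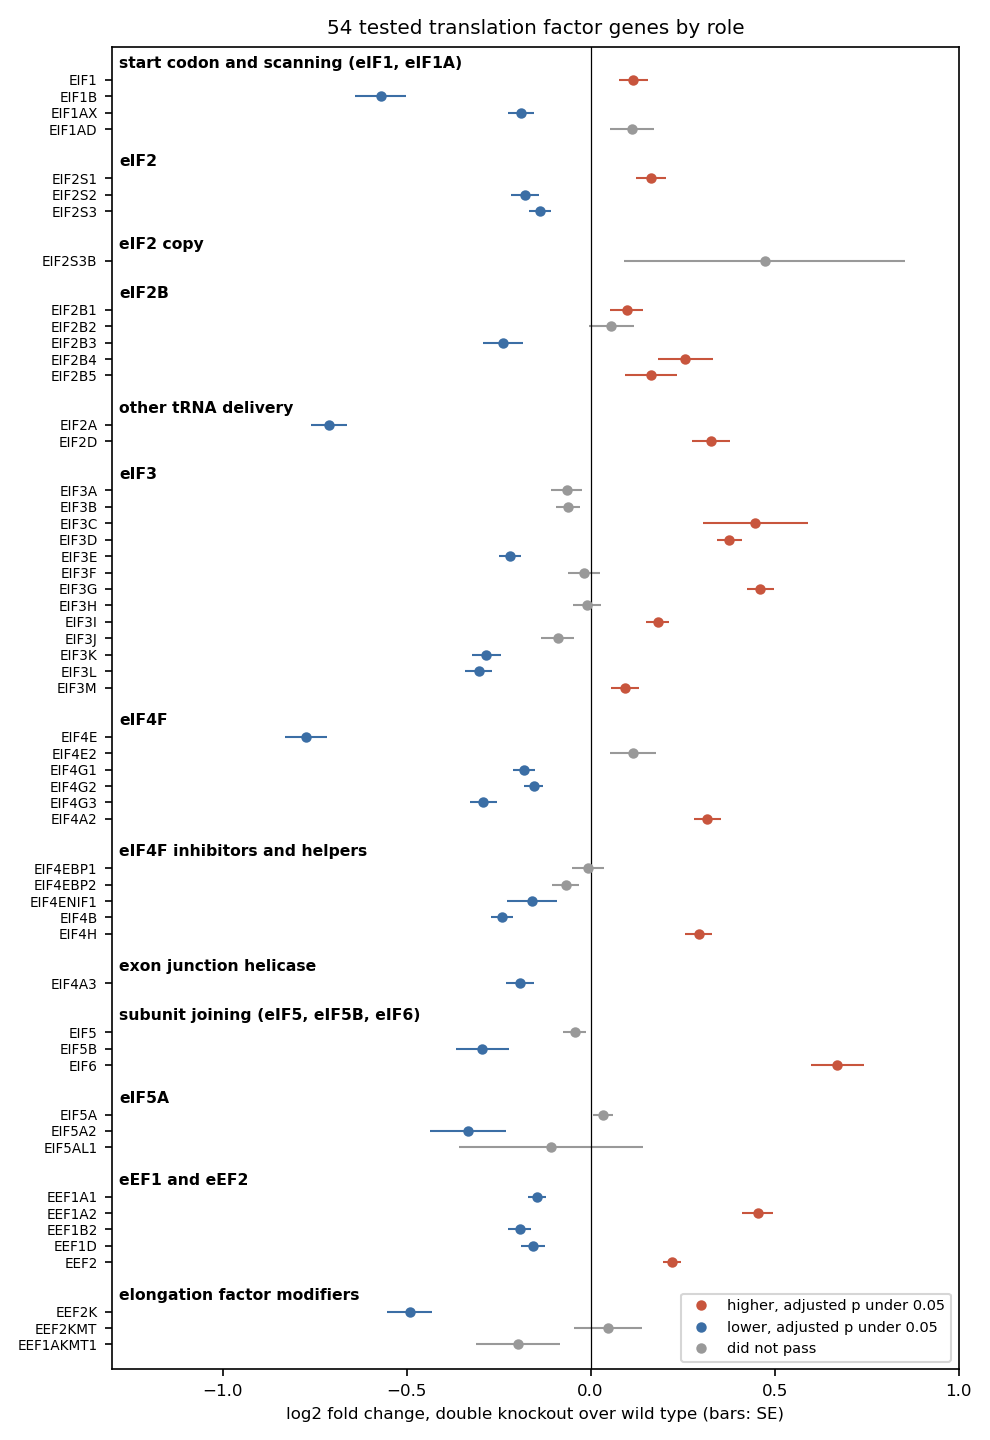
Log2 fold change (double knockout over wild type, horizontal axis) of each tested translation factor gene, grouped by role, with bars for the standard error of the fit; colour marks genes that were higher, lower or did not pass. Values of both signs stand in most roles, and the extremes are EIF4E at -0.77 and EIF6 at 0.67.

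Members with a TOP start went both ways. Of the 13 tested members with one, 5 were higher, 6 were lower and 2 did not pass, with a median log2 fold change of -0.02. Of the 30 tested members whose windows lacked it, 9 were higher and 12 lower, with a median of -0.06. Over all 738 tested genes with a TOP start, 29.1% were higher and 36.0% lower. A separate list of 9 members known from the literature as TOP mRNAs (EEF1A1, EEF1B2, EEF1D, EEF1G, EEF2, EIF3E, EIF3F, EIF3H and EIF4B) had 8 tested. Of these 1 was higher (EEF2), 5 were lower and 2 did not pass, and their median was -0.15 against 0.01 for all genes tested. The window search does not cover this list: EEF1D, EIF3E and EIF3H had no window, and the window of EEF1G did not meet the rule. The summed level of the listed mRNAs was 8735 ± 131 CPM in the wild type libraries, against 8696 ± 82.2 CPM in the double knockouts (SD, n = 3 each), a difference smaller than the spread between replicates. This sum does not show the single genes: EEF2 rose from 3228 to 3765 CPM and EEF1A1 fell from 3055 to 2761 CPM.

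The genes named after eIF1 and eIF1A, the factors that open the small subunit for scanning, moved in both directions. Of 5 genes, 4 were tested, of which 1 was higher, 2 were lower and 1 (EIF1AD, log2 fold change 0.11, adjusted p = 0.0957) did not pass. EIF1B, a paralogue of the start-codon fidelity factor eIF1, had 59.5, 60.6 and 60.3 CPM in the wild type libraries, against 37.8, 40.9 and 42.6 CPM in the double knockouts. All 3 double knockout libraries were below all wild type libraries, and the log2 fold change was -0.57 ± 0.070 (SE; adjusted p = 2.15e-14). EIF1 itself was 179 ± 9.08 and 194 ± 7.85 CPM (log2 fold change 0.12, adjusted p = 0.00761), and this call was lost without wild type replicate 1 (0.07), without double knockout replicate 1 (0.08), with DESeq2 and with spike-in scaling (0.01). EIF1AX, the X-linked eIF1A gene, fell from 265 ± 4.90 to 233 ± 5.87 CPM (-0.19, adjusted p = 1.06e-06).

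Within eIF2 the subunits moved apart. EIF2S1, the alpha subunit whose phosphorylation shuts down initiation, was higher, at 162 ± 5.76 CPM in the wild type libraries, against 181 ± 6.65 CPM in the double knockouts (log2 fold change 0.16 ± 0.041, adjusted p = 2.02e-04). EIF2S2, the beta subunit, was lower, at 241 ± 7.47 and 213 ± 13.9 CPM (-0.18 ± 0.038, adjusted p = 8.99e-06). EIF2S3, the gamma subunit that binds GTP and the initiator tRNA, was also lower, at 600 ± 7.56 and 545 ± 4.83 CPM (-0.14 ± 0.030, adjusted p = 1.83e-05). For each of the 3 subunits the libraries of the groups did not overlap. Levels were also taken per kilobase of exon, counting all annotated exon bases of a gene, which need not be the length of its mRNA. In wild type they were 28.6 CPM for EIF2S1, 90.6 for EIF2S2 and 173 for EIF2S3, and in double knockout 32.0, 80.0 and 157. The alpha subunit was thus the lowest of the complex in both groups, as it was in CPM. The 3 levels lay closer together in double knockout. The rise of EIF2S1 did not pass with spike-in scaling (0.05). The retrocopy EIF2S3B had 5 to 13 counts per library and did not pass (adjusted p = 0.291).

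eIF2B is the exchange factor that reloads eIF2 with GTP. Of its 5 subunit genes, 3 were higher, 1 was lower and 1 did not pass. EIF2B4, the delta subunit, had the largest rise, from 39.6 ± 2.14 to 47.3 ± 2.14 CPM (log2 fold change 0.26 ± 0.075, adjusted p = 0.00154). EIF2B5, the catalytic epsilon subunit, was 45.7 ± 1.14 and 51.2 ± 2.87 CPM (0.16, adjusted p = 0.0385), and EIF2B1, the alpha subunit, was 128 ± 4.15 and 136 ± 2.67 CPM (0.10, adjusted p = 0.0489). EIF2B3, the gamma subunit that partners epsilon, was the one that fell, from 92.4 ± 6.49 to 78.0 ± 7.05 CPM (-0.24 ± 0.055, adjusted p = 5.76e-05). EIF2B2, the beta subunit, had a log2 fold change of 0.06 (adjusted p = 0.451). The summed level of the complex was 367 ± 13.7 CPM in the wild type libraries, against 378 ± 10.5 CPM in the double knockouts. The rises are less firm than the fall: 0 of the 3 passed with spike-in scaling, where EIF2B1 changed sign (-0.01), and leaving out single libraries left 1 or 2. EIF2B1 passed only when wild type replicate 3 was the library left out, and EIF2B5 only when it was double knockout replicate 1.

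Of the 2 factors known to bring initiator tRNA without eIF2, one fell and one rose. EIF2A had 140, 141 and 136 CPM in the wild type libraries, against 83.6, 85.4 and 85.9 CPM in the double knockouts. Its log2 fold change was -0.71 ± 0.049 (adjusted p = 7.29e-40), the second lowest of the members, and no library of one group reached the other. EIF2D, a relative of the recycling factors MCTS1 and DENR, had 79.3, 87.6 and 93.5 CPM in the wild type libraries, against 111, 108 and 106 CPM in the double knockouts. All double knockout values were above all wild type values, and the change was 0.33 ± 0.051 (adjusted p = 2.50e-09). With spike-in scaling that of EIF2D was 0.22 and did not pass (adjusted p = 0.0567). The annotated windows of both genes have a TOP start by the rule above, and their mRNAs moved in opposite directions. Neither gene is on the list of known TOP mRNAs.

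eIF3 is the largest initiation factor, a scaffold of many subunits on the small subunit. Of its 14 genes 13 were tested, of which 5 were higher, 3 were lower and 5 did not pass, with a median of -0.02. The summed level was 3277 ± 29.9 CPM in the wild type libraries, against 3311 ± 32.0 CPM in the double knockouts. The summed levels of the groups overlapped, although single subunits differed.

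EIF3G, EIF3C and EIF3D had the largest rises. EIF3G, an RNA-binding subunit needed for scanning, had 199, 207 and 200 CPM in the wild type libraries, against 277, 283 and 276 CPM in the double knockouts. Its log2 fold change was 0.46 ± 0.037 (adjusted p = 6.95e-31). EIF3D, the subunit that can itself contact the cap of some mRNAs, had 302, 309 and 292 CPM in the wild type libraries, against 387, 393 and 395 CPM in the double knockouts. Here the change was 0.38 ± 0.033 (adjusted p = 9.46e-26). For both genes the lowest double knockout library was above the highest wild type library. EIF3C, a core subunit, had 10.7, 9.78 and 8.53 CPM in the wild type libraries, against 14.2, 12.6 and 13.3 CPM in the double knockouts (0.45 ± 0.142, adjusted p = 0.00392). The copy EIF3CL shares its sequence, so the level of EIF3C is uncertain: at 1.39 CPM per kilobase of exon it was the lowest of the 13 tested subunits in wild type, where the core partners EIF3A and EIF3B had 22.0 and 46.2. EIF3I (0.18, adjusted p = 4.68e-08) and EIF3M (0.09, adjusted p = 0.0243) were higher by less.

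EIF3L, EIF3K and EIF3E were the subunits that fell. EIF3L had 271, 270 and 258 CPM in the wild type libraries, against 230, 208 and 211 CPM in the double knockouts, a change of -0.30 ± 0.037 (adjusted p = 7.56e-15). EIF3K, which forms a pair with EIF3L at the edge of the complex, was 208 ± 11.0 and 171 ± 2.01 CPM (-0.28, adjusted p = 1.66e-11). EIF3E, a core subunit that contacts eIF4G, was 574 ± 11.8 and 493 ± 13.7 CPM (-0.22, adjusted p = 1.05e-11). For all 3 the groups did not overlap. EIF3A, EIF3B, EIF3F, EIF3H and EIF3J had log2 fold changes between -0.09 and -0.01 and did not pass (adjusted p from 0.0771 to 0.852). The rise of EIF3M was lost without wild type replicate 1, double knockout replicate 1 or double knockout replicate 2, and its sign turned with spike-in scaling (-0.01). With that scaling EIF3C (0.34) and EIF3I (0.08) did not pass, which left EIF3D and EIF3G as the higher subunits.

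**Figure D2:**
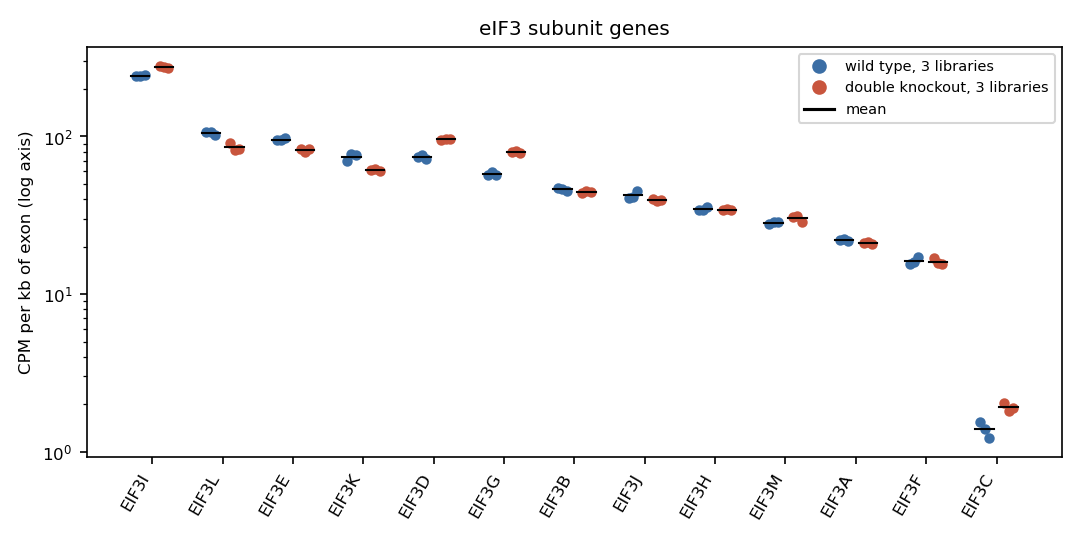
Level of the eIF3 subunit mRNAs in CPM per kilobase of exon (vertical log axis) in each of the 6 libraries; points are libraries, lines are group means, and colour marks wild type and double knockout. EIF3D and EIF3G are higher in all 3 double knockout libraries, and EIF3E, EIF3K and EIF3L are lower in all 3.

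The eIF4F group as counted here holds the subunit genes and their relatives, among them EIF4G2 and EIF4E2. Of its 6 tested genes 4 fell, the cap-binding EIF4E by the largest amount on the log2 scale. The measured eIF4F genes, which exclude EIF4A1, added up to 2686 ± 10.2 CPM in the wild type libraries, against 2442 ± 11.2 CPM in the double knockouts, and the libraries of the groups did not overlap. EIF4G2, a relative of the scaffold that does not bind eIF4E, made up 1405 of the wild type sum, and without it the sums were 1281 ± 11.9 and 1180 ± 12.8 CPM, again with no overlap. The 3 other genes of the group were not tested, 1 of the 6 was higher and 1 did not pass. EIF4E, the cap-binding protein and limiting subunit of the complex, had 95.1, 91.7 and 101 CPM in the wild type libraries, against 53.1, 59.4 and 55.2 CPM in the double knockouts. The highest double knockout library was below the lowest wild type library. Its log2 fold change of -0.77 ± 0.058 (adjusted p = 5.50e-34) was the lowest of all 54 members, and EIF4E kept its call under all 16 alternative settings. EIF4E2, a cap-binding paralogue that represses translation, was not called (0.11, adjusted p = 0.109).

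The scaffolds fell together by smaller amounts. EIF4G1 was 650 ± 17.04 CPM in the wild type libraries, against 574 ± 4.65 CPM in the double knockouts (log2 fold change -0.18 ± 0.030, adjusted p = 7.99e-09). EIF4G3 was 246 ± 3.32 and 201 ± 3.47 CPM (-0.29 ± 0.037, adjusted p = 2.74e-13). EIF4G2, also called DAP5, lacks the eIF4E-binding part and serves other routes of initiation; it was 1405 ± 14.5 and 1262 ± 23.8 CPM (-0.15, adjusted p = 4.44e-08). None of the 3 scaffolds had a library in the range of the other group. The helicase EIF4A2 was the one eIF4F gene that rose. It had 223, 229 and 240 CPM in the wild type libraries, against 289, 288 and 283 CPM in the double knockouts, a change of 0.32 ± 0.036 (adjusted p = 1.30e-16). Per kilobase of exon, the wild type levels were 6.91 CPM for EIF4E, 78.7 for EIF4G1, 25.6 for EIF4G3 and 42.0 for EIF4A2. EIF4E was thus the lowest of them in wild type, and with 4.02 CPM in double knockout it remained so. Without division by exon length it was the lowest of them too, with means of 96.1 CPM in wild type and 55.9 CPM in double knockout.

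**Figure D3:**
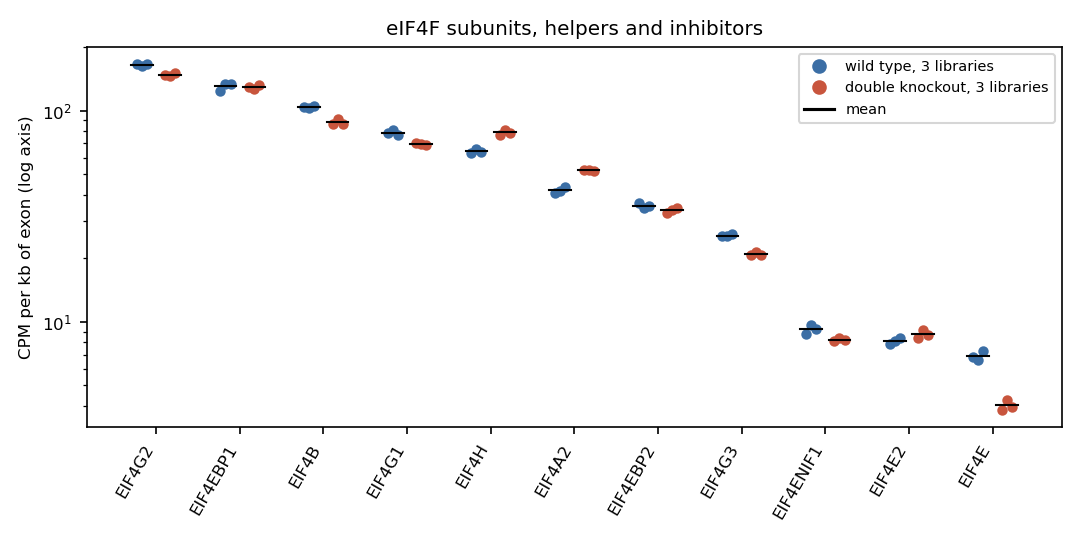
Level of the eIF4F mRNAs and of their inhibitors and helpers in CPM per kilobase of exon (vertical log axis) in each of the 6 libraries; points are libraries, lines are group means, and colour marks wild type and double knockout. Among the tested genes plotted, EIF4E has the lowest level per kilobase, with means of 6.91 in wild type and 4.02 in double knockout. This rank depends on the divisor, which counts all annotated exon bases, 13896 for EIF4E and 7177 for EIF4E2. By CPM the wild type mean is 96.1 for EIF4E and 58.3 for EIF4E2. EIF4A2 and EIF4H are higher in all 3 double knockout libraries.

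The binding inhibitors of eIF4E did not pass the test. EIF4EBP1 and EIF4EBP2, which sequester eIF4E when mTORC1 is off, had log2 fold changes of -0.01 (adjusted p = 0.890) and -0.07 (adjusted p = 0.0958). EIF4ENIF1, a protein that carries eIF4E to the nucleus, was 56.0 ± 2.60 and 50.2 ± 0.960 CPM (-0.16, adjusted p = 0.0341), a call that was lost without any one of wild type replicates 2 and 3 and double knockout replicates 1 and 3. The helpers of eIF4A moved apart. EIF4B, which stimulates the helicase, fell from 640 ± 5.08 to 542 ± 16.2 CPM (-0.24, adjusted p = 3.56e-14). EIF4H, which acts on it in a related way, had 202, 209 and 204 CPM in the wild type libraries, against 246, 257 and 251 CPM in the double knockouts. The groups did not overlap, and the change was 0.29 ± 0.037 (adjusted p = 1.05e-13), reduced to 0.19 and not passing with spike-in scaling. EIF4A3, the helicase of the exon junction complex, had 238, 234 and 228 CPM in the wild type libraries, against 202, 201 and 210 CPM in the double knockouts (-0.19, adjusted p = 1.92e-06).

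The letters CACGTG are the E-box bound by MYC and related factors. The promoter windows, from 250 bases before to 50 after the start, were searched for these letters, which read the same on both strands; the motif was chosen after the values were seen. EIF4E had 2 copies, 225 and 72 bases upstream of its start. One is shown in capitals within chr4:98929183-98929222 (GRCh38.p14, minus strand).
EIF4E E-box: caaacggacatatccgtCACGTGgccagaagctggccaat
The letters were present in 14 of 71 member windows (19.7%) and in 7.26% of all windows. Of the 11 tested members with CACGTG, 9 were lower (EEF2K, EIF1B, EIF2B3, EIF3K, EIF4A3, EIF4B, EIF4E, EIF4G1 and EIF5A2), 1 was higher (EIF4H) and 1 did not pass (EIF3F). Their median was -0.24. Over all 1289 tested genes with CACGTG, 31.2% were higher and 31.9% lower. Of the 9 that were lower, EIF1B, EIF4E, EIF5A2 and EIF3K lie among chromosomal neighbours that were lower too, with medians of -0.56, -0.50, -0.69 and -0.25. The part of the motif, or of the neighbourhood, in these changes was not tested.

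Among the factors of subunit joining the anti-association factor rose. EIF6, which keeps the large subunit from joining too early, had 35.9, 38.7 and 37.0 CPM in the wild type libraries, against 61.1, 53.9 and 63.0 CPM in the double knockouts. It was 1.59-fold higher, with a log2 fold change of 0.67 ± 0.072 (adjusted p = 2.89e-18), the highest of all members, and its groups did not overlap. EIF5B, the GTPase that joins the subunits, fell from 50.7 ± 2.25 to 41.4 ± 1.87 CPM (-0.29, adjusted p = 1.88e-04). EIF5, the GTPase-activating protein of eIF2, did not pass (-0.04, adjusted p = 0.247). eIF5A, the hypusine-bearing factor that helps ribosomes through difficult stretches, was 800 ± 6.98 and 819 ± 28.96 CPM for EIF5A (0.03, adjusted p = 0.309). Its minor paralogue EIF5A2 had 22.5, 23.1 and 26.5 CPM in the wild type libraries, against 18.5, 19.1 and 19.2 CPM in the double knockouts (-0.33 ± 0.10, adjusted p = 0.00326). The retrocopy EIF5AL1 did not pass (adjusted p = 0.738).

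The elongation factors split by gene. Of the 5 of 6 eEF1 and eEF2 genes that could be tested, 2 were higher and 3 lower, and their summed level was 7283 ± 144 CPM in the wild type libraries, against 7478 ± 82.7 CPM in the double knockouts. EEF2, the translocase, rose from 3228 ± 42.0 to 3765 ± 94.9 CPM (log2 fold change 0.22, adjusted p = 4.81e-17), although with spike-in scaling it was 0.12 and did not pass. EEF1A1, the main tRNA carrier, fell from 3055 ± 66.6 to 2761 ± 14.7 CPM (-0.15, adjusted p = 4.50e-08). Its many processed pseudogenes share its sequence, which makes its count uncertain. EEF1B2 (-0.19, adjusted p = 7.79e-09) and EEF1D (-0.16, adjusted p = 1.14e-05), both exchange factors of eEF1A, were lower as well. EEF1A2, the tissue-restricted paralogue of EEF1A1 known from muscle and neurons, had 136, 139 and 138 CPM in the wild type libraries, against 192, 187 and 187 CPM in the double knockouts. The groups did not overlap, and the change was 0.45 ± 0.042 (adjusted p = 3.18e-24). Per kilobase of exon EEF2 was the highest member of those with a computed level, at 807 CPM in wild type and 942 in double knockout, followed by EEF1A1 at 514 and 464. The divisors were 3999 annotated exon bases for EEF2 and 5948 for EEF1A1. With these divisors and the uncertain count of EEF1A1, the order of the 2 mRNAs by abundance is uncertain.

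Of the enzymes that modify elongation factors, 3 of 7 were tested and 1 was called. EEF2K, the kinase that inactivates eEF2, had 77.3, 78.1 and 75.3 CPM in the wild type libraries, against 54.8, 52.6 and 57.0 CPM in the double knockouts. Every double knockout library was below every wild type library, with a change of -0.49 ± 0.061 (adjusted p = 4.75e-14). The mRNA of the kinase was thus lower and that of its substrate EEF2 higher. The methyltransferases EEF2KMT (0.05, adjusted p = 0.684) and EEF1AKMT1 (-0.20, adjusted p = 0.129) did not pass.

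Ratios of related genes within a library do not depend on how libraries are scaled. They are ratios of CPM, not corrected for gene length, so they are compared between groups only. For 7 pairs the ratio was tested by a two-sided exact permutation test, whose smallest possible p with 3 libraries a group is 0.1. The ratio of EIF4E to EIF4E2 was 1.65 ± 0.059 in wild type and 0.889 ± 0.012 in double knockout, a difference of -0.89 in log2 ratio (exact p = 0.1, adjusted 0.117 over 7 pairs). That of EIF4E to its inhibitor EIF4EBP1 was 0.688 ± 0.044 and 0.403 ± 0.029 (-0.77). Cap-binding protein mRNA was thus lower relative to both its paralogue and its inhibitor in every double knockout library. The ratio of EEF1A1 to EEF1A2 was 22.1, 22.4 and 22.0 in wild type and 14.4, 14.6 and 14.8 in double knockout (-0.60). That of EIF1 to EIF1B was 2.97 ± 0.126 and 4.81 ± 0.487 (0.69), and that of EIF5A to EIF5A2 was 33.4 ± 2.77 and 43.3 ± 0.750 (0.38). The ratio of EIF4G1 to EIF4G3 changed least among the non-overlapping pairs (2.65 ± 0.101 and 2.86 ± 0.046, 0.11). These 6 pairs had the smallest p the design allows, whereas EIF4G1 to EIF4G2 had overlapping libraries (0.463 ± 0.017 and 0.455 ± 0.012, exact p = 0.5).

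**Figure D4:**
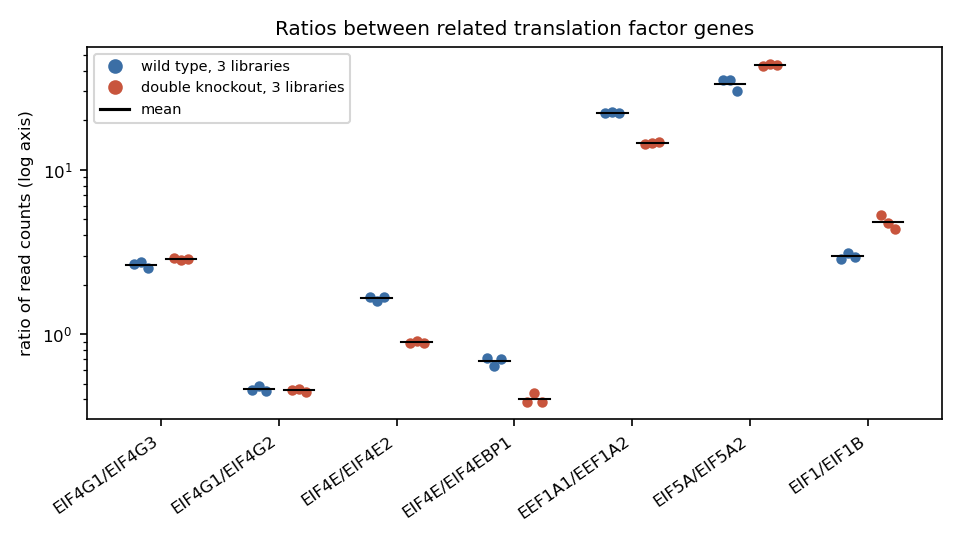
Ratio of the read counts of related translation factor genes in each library (vertical log axis), for the 7 pairs compared; points are libraries and colour marks wild type and double knockout. EEF1A1 to EEF1A2 lies between 22.0 and 22.4 in wild type and between 14.4 and 14.8 in double knockout, and only EIF4G1 to EIF4G2 overlaps between the groups.

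Some members lie in chromosome stretches whose genes changed with them. For each member, the median log2 fold change of the 10 nearest tested genes on either side was taken, with other members left out. EIF2A, at chr3:150546678-150584242 (hg38, GENCODE gene bounds here and below), changed by -0.71 and its 20 neighbours by a median of -0.71; 16 of the 20 were lower and 1 was higher. EIF1B, at chr3:40309684-40312424, changed by -0.57 and its neighbours by -0.56, with 17 of 20 lower. EIF4E, at chr4:98871684-98930637, changed by -0.77 and its neighbours by -0.50, with 13 lower and 0 higher. EIF5A2, at chr3:170888415-170908693, fell by 0.33 in a stretch with a median of -0.69. These 4 were the members whose neighbours had a median change of at least 0.4 in size, and the part of their neighbourhood in their change was not tested. EIF3K, at chr19:38619082-38636955, was also close to its neighbours (-0.28 and -0.25), and EIF4H, at chr7:74174245-74197101, rose by 0.29 where its neighbours had a median of 0.33.

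Other members differed from their neighbours. EIF6, at chr20:35278911-35284985, had neighbours with a median of 0.10, so its difference from them was 0.57. It shares 18.7% of its gene body with a gene of the same strand (AL121753.1). EIF3G at chr19:10115017-10119918 was 0.37 above its neighbours, EIF2D at chr1:206571292-206612463 was 0.37 above, and EIF3D at chr22:36510850-36529436 and EIF4A2 at chr3:186783205-186789900 were 0.29 above theirs. EIF3L, at chr22:37848868-37889407, fell by 0.30 among neighbours with a median of 0.25; it shares 32.7% of its gene body with a gene of the same strand (AL022311.1). EIF4G3 and EIF4G1 were 0.41 and 0.30 below their neighbours, and EEF2K, at chr16:22206282-22288732, was 0.34 below. Of the 38 members that passed, 22 had neighbours whose median had the same sign. This was so for 13 of 16 that were higher and 9 of 22 that were lower. The same shares over all tested genes were not computed. The neighbours' medians of the 54 tested members themselves had a median of 0.04, above 0. The counts are therefore not read as a difference between members that rose and members that fell. Across the 54 tested members Pearson's r with the neighbours' median was 0.56 and Spearman's rho 0.36. Without the 4 members named first, r was 0.24 and rho 0.19 over 50. Members on one chromosome can share neighbours, so these values are a description.

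**Figure D5:**
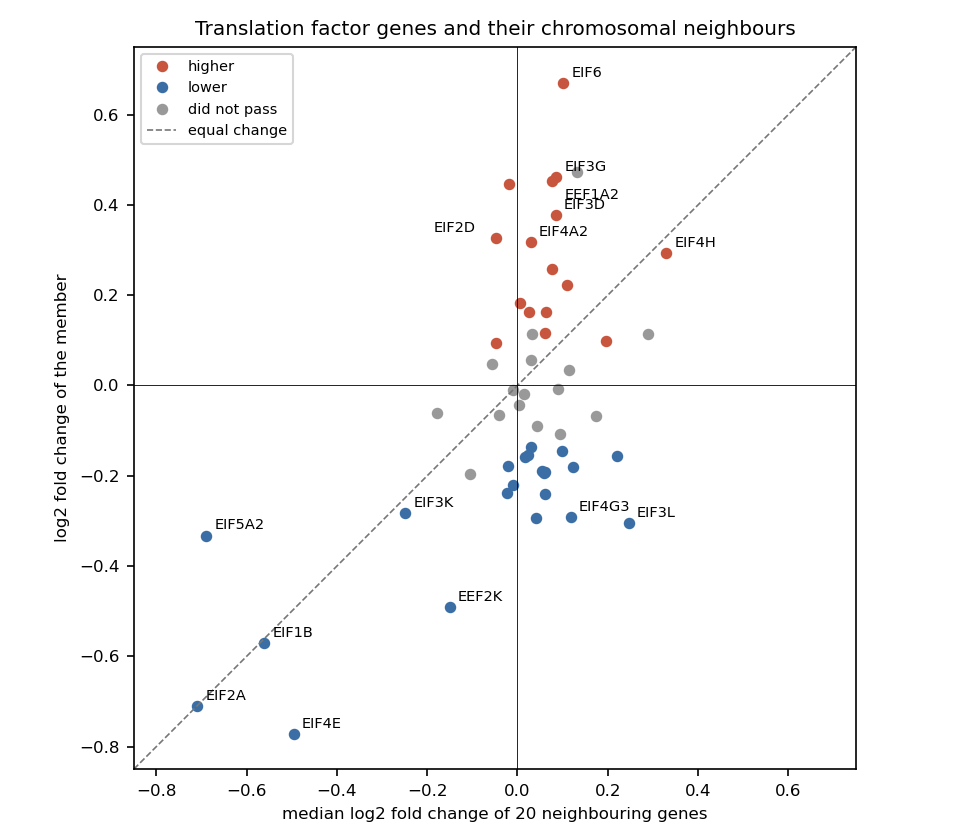
Log2 fold change of each tested translation factor gene (vertical axis) against the median log2 fold change of its 20 neighbouring tested genes (horizontal axis); the broken line marks equal change. EIF2A and EIF1B lie on the line, EIF4E lies below it, and EIF6 and EIF3G lie above it.

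Other genes of translation also went both ways. The list held regulators of the factors, poly(A)-binding proteins, scanning, recycling and termination factors, enzymes that modify eEF2 and eIF5A, and mitochondrial translation factors. Of these 48 genes, 46 were tested, of which 11 were higher, 19 were lower and 16 did not pass. Their median was -0.06 against 0.01 for all genes. The shares over all 14180 genes tested were 28.6% higher and 28.5% lower, or 57.1% in either direction. Among the 6 genes that write and erase eIF2 alpha phosphorylation, 1 was higher and 3 were lower. EIF2AK1, the haem-regulated eIF2 kinase, fell from 232 ± 7.202 to 177 ± 3.90 CPM (log2 fold change -0.39, adjusted p = 1.80e-21). PPP1R15A (GADD34), the stress-induced phosphatase subunit, rose from 34.9 ± 1.28 to 51.7 ± 2.32 CPM (0.57, adjusted p = 1.30e-12), whereas its constitutive relative PPP1R15B fell (-0.15, adjusted p = 0.00126).

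In the mTORC1 and MNK branch, which acts on eIF4E and its inhibitors, 2 of 10 genes were higher and 4 lower. RPS6KB2, an S6 kinase, was higher (0.42, adjusted p = 1.55e-11), as was MKNK2, an eIF4E kinase (0.19, adjusted p = 3.66e-05), and RPTOR, the mTORC1 scaffold, was lower (-0.21, adjusted p = 3.85e-06). All 5 genes of poly(A)-binding protein and its partners passed, 3 higher and 2 lower. PABPC4 was higher (0.26, adjusted p = 1.52e-12) and PABPC1, the major form, lower (-0.11, adjusted p = 2.89e-04), as was the inhibitor PAIP2B (-0.41, adjusted p = 1.30e-05). Of 5 genes for scanning and ribosome recycling, 2 were higher and 2 lower. ABCE1, which splits ribosomes, fell (-0.44, adjusted p = 2.60e-28) in a stretch with a median of -0.59, and DDX3X (0.16, adjusted p = 5.66e-07) and DENR (0.13, adjusted p = 0.00146) rose. With spike-in scaling 2 of the 11 rises were left and 20 genes were lower.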

How the data were processed

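RNA was measured in 6 libraries of HEK293T cells, 3 wild type and 3 ALKBH5 and FTO double knockout, labelled as independent biological replicates. The deposited table held raw, whole-number read counts for 58721 genes; per the submitters' processing notes the authors used cutadapt 2.10, STAR 2.7.6a and featureCounts (version not given) with hg38. No source used here gives the strand setting or the handling of multiply aligned reads, so overlapping genes and near-identical copies have uncertain counts. Wild type columns were named HEK293G6, which the labels do not explain; no other genotype remained for them.

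Genes passing filterByExpr (minimum count 10, minimum total 15) were tested in edgeR 4.0.16 (R 4.3.3) with TMM scaling and the robust quasi-likelihood fit, two-sided, adjusted by Benjamini and Hochberg over 14180 genes, threshold 0.05. CPM used TMM-scaled totals. CPM per kilobase used all annotated exon bases of a gene outside other genes of the same strand (at least 500). Deviations from the group means correlated little between libraries of equal replicate number (0.0106, 0.0166 and 0.0085). The main fit did not pair them. The labels do not state whether equal numbers share a batch, and low correlations cannot show that they do not. The fit was tested on simulated data. Alternatives were DESeq2 1.42.0, limma 3.58.1 voom, other scalings and filters, a replicate block and leaving out libraries.

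Members and lists were chosen with earlier results of these data known. Values in every library are given for eIF2, eIF2B, eIF3, eIF4F and eEF1/eEF2 genes that passed with a change of at least 0.3 and groups that did not overlap, up to 5 per complex, and for the largest change of each other role; EIF2D was added after its values were seen. In each list of other translation genes the 3 with the smallest p are named.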

Additional observations from a re-analysis of the deposited data

How the results depend on the processing

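Of the 38 members that passed, 26 kept direction and call under all 16 alternatives, and 12 lost it or changed sign under at least 1. The replicate block gave 16 members higher and 22 lower, as without it, and changed no member's call; of the other translation genes named in the text it ended that of GSPT2 alone (adjusted p = 0.0532 in edgeR). With spike-in scaling 5 members were higher: 2 in eIF3, 1 in eIF4F (EIF4A2), 1 in eEF1 and eEF2 (EEF1A2), EIF6, and 0 in eIF2 and 0 in eIF2B. Of the known TOP mRNAs 0 were higher, and of the other translation genes 2; EIF2B1 (-0.0119) and EIF3M (-0.0142) changed sign. This shift is built into the scaling, which moved all genes down, to 2133 higher and 4236 lower from 4055 and 4038. With DESeq2 and with no low-count filter 1 eIF2B gene was higher, and leaving out single libraries gave 1 to 2. Upper quartile scaling gave 4972 genes higher and 3227 lower, with 2 eIF4F genes higher (also 2 with library totals only) and 12 of the other translation genes lower. The cause of these differences was not tested. DESeq2 called fewer genes in all (3027 higher and 3138 lower). Low counts limit the statements on EIF3C, EIF3CL and EIF2S3B. For EIF3C and EIF3CL the shared sequence limits them too, at any depth. Members at 0 through a shared gene body have no value at any depth.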

Other observations

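Factors of termination, of mitochondrial translation and of diphthamide, the modified histidine of eEF2, were measured beside the members. HBS1L, which rescues stalled ribosomes with PELO, had the largest change of all 48 related genes, from 201 ± 5.55 CPM in wild type to 110 ± 2.07 CPM in double knockout (SD, n = 3 each; log2 fold change -0.87, adjusted p = 1.57e-67), and its 20 neighbouring genes had a median of -0.49. ETF1 was lower (-0.09, adjusted p = 0.0192) and GSPT2 higher (0.23, adjusted p = 0.0476), both termination factors. The call of ETF1 was lost without wild type replicate 2 or 3 or double knockout replicate 3, and that of GSPT2 was kept only when double knockout replicate 2 was the library left out. GSPT2 also did not pass with the replicate block (adjusted p = 0.0532), with limma voom (0.0551) or with DESeq2 (0.185), and ETF1 did not pass with DESeq2 (0.0893). Of 7 diphthamide genes, 1 was higher and 3 were lower: DPH3 (-0.61, adjusted p = 4.06e-16, neighbours -0.49), DNAJC24 (-0.45, adjusted p = 9.24e-08) and DPH7 (0.24, adjusted p = 4.63e-04) had the smallest p. DOHH, the last enzyme of hypusine formation on eIF5A, was higher (0.29, adjusted p = 0.00857), a call lost without double knockout replicate 3.

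Of 8 mitochondrial translation factors, 0 were higher, 3 were lower and 5 did not pass, where 28.6% of all genes tested were higher and 28.5% lower. GFM1, the mitochondrial elongation factor G, fell from 91.5 ± 2.07 to 55.1 ± 3.53 CPM (-0.73, adjusted p = 6.12e-30, neighbours -0.41), MTRF1L by 0.52 on the log2 scale (adjusted p = 1.44e-05, neighbours -0.52) and MTIF3 by 0.24 (adjusted p = 0.00182).

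DHPS, the first hypusine enzyme, had 1 count in all, and PELO was listed at 0. DHPS shares 98.9% of its gene body with AC010422.8 and PELO 100% with ITGA1 on the same strand, as for EIF4A1 and EEF1G above.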
